A study of Mus musculus with 8 samples.

Results

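The genes described here are 6 long noncoding RNAs that are known from the cell nucleus: Malat1, Neat1, Miat, Rmst, Pvt1 and Dleu2. They were chosen by symbol, and each symbol matched 1 of the 55471 gene rows of the deposited tables. All 6 passed the filter on low counts, each through its Input libraries alone as well, and 16524 genes were tested. In every one of the 6 pull-down libraries, control probes included, each of the 6 RNAs was above both Input libraries. The mean gain over Input ran from 1.55-fold for Pvt1 to 2.59-fold for Rmst. None of the 6 passed the test of Lhx1os probes against control probes, which the target Lhx1os did not pass either in the main fit.

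These RNAs act where they are made. Malat1 collects in nuclear speckles, which are bodies rich in splicing factors, and Neat1 is the scaffold on which paraspeckles, another kind of nuclear body, assemble. Miat, also called Gomafu, forms a spotted nuclear pattern in neurons and binds the splicing factor SF1 through repeated short motifs. Rmst is a neural RNA that binds the transcription factor SOX2. Pvt1 is transcribed next to the Myc oncogene, and Dleu2 is the primary transcript from which miR-15a and miR-16 are cut.

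The cells were spinal motor neurons differentiated from the mouse embryonic stem cell line HBG3, which carries the HB9::GFP reporter that lights up motor neurons, and were grown for 3 days after dissociation and plating. All groups came from this line and culture, and the labels name no sorting step. The ODD and EVEN groups were RNA captured with biotinylated antisense probes of 20 nt against the long noncoding RNA Lhx1os, the LacZ group was RNA captured with probes against a bacterial mRNA, and Input was the RNA before capture. There were 2 libraries per group, numbered replicate 1 and replicate 2, from independent experiments, and the question set by the design was what each capture held relative to Input. Bulk libraries cannot separate fewer molecules per cell from fewer cells that hold them.

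Depth lay between 7632775 counts (LacZ replicate 1) and 24628435 counts (Input replicate 1), with both Input libraries deeper than all pull-downs. The target Lhx1os had 55 and 61 counts in Input, 16 and 28 with LacZ probes, 2239 and 371 with ODD and 1767 and 283 with EVEN. Motor neuron markers were detected in both Input libraries (8 of 8, with Mnx1 at a mean of 58.6 CPM, or counts per library scaled to a common total with TMM factors), and so were 5 of 5 markers of spinal progenitors and 5 of 5 of mesenchyme. The summed level of the motor neuron list was 221 to 666 in Input and 243 to 644 in the pull-downs, in CPM. The progenitor list lay at 1328 to 1785 and 1044 to 1555, the mesenchyme list at 108 to 217 and 99.7 to 172, and the list of astrocytes and oligodendrocytes (Gfap near 0) at 63.1 to 476 and 49.6 to 330. Of the pluripotency markers, Pou5f1 was at 0 in every library. The part of cell mixture in the values below was not tested.

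The word abundant fitted some of the 6 RNAs only. Levels that can be compared between genes are in FPKM, reads scaled to the length of the merged exons and to the total count. In Input, Malat1 had a mean of 587.7 ± 259.2 FPKM, Miat 39.8 ± 10.6, Rmst 5.85 ± 1.37, Dleu2 1.75 ± 0.513, Pvt1 1.17 ± 0.114 and Neat1 0.232 ± 0.0706 (SD, n = 2 each). Of neighbours in that order, only Dleu2 and Pvt1 differed by less than the sum of their SDs. Malat1 ranked 16 and 7 of all genes in Input, and 2 to 4 in the pull-downs. Neat1 was the lowest of the 6, with 93 and 120 counts in Input. Its FPKM divides by the whole 20771 bases, so reads of a shorter isoform are spread over the full length. In the pull-downs the order of the means was the same, at 1442, 87.6, 15.3, 2.91, 1.83 and 0.465 FPKM.

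**Figure D1:**
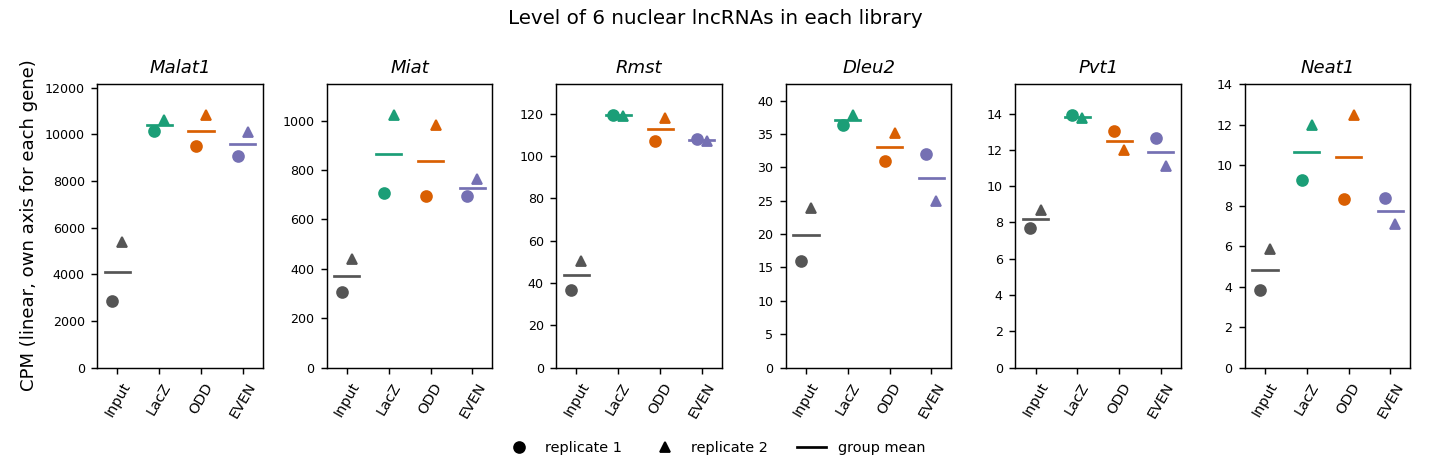
Level of each RNA in CPM (linear axis, a separate scale for each gene), with circles for replicate 1, triangles for replicate 2 and bars for the mean of the 2 libraries of a group. For all 6 RNAs every pull-down symbol lies above both Input symbols, and Malat1 reaches 10822 CPM while Neat1 stays between 3.83 and 12.5 CPM.

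Malat1 (ENSMUSG00000092341) lies on the minus strand of chromosome 19 from 5795690 to 5802672 (GRCm38, as are all coordinates here) and is annotated as a lincRNA of 6983 bases without introns. It stood at 2862 and 5373 CPM in Input, 10140 and 10636 with LacZ probes, 9480 and 10822 with ODD and 9063 and 10100 with EVEN. The pull-downs were close to each other, and the Input libraries differed by 1.88-fold. In share of a library this was 0.282% and 0.538% of the counts in Input and 0.901% to 1.10% in the pull-downs. Malat1 rose over Input by 1.29 on the log2 scale (SE 0.28) in the mean of the pull-downs, or 2.44-fold, with an adjusted p of 0.0321 in the quasi-likelihood test of edgeR. The call was lost without most single libraries. Without Input replicate 1 the value was 0.89 (adjusted p 0.158), and without each of the 6 pull-down libraries in turn it was 1.25 to 1.31 (adjusted p 0.0528 to 0.0763). It passed without Input replicate 2, at 1.80 (adjusted p 0.0263). The replicate numbers mark the experiment, and against the Input of the same experiment Malat1 gained 3.34-fold in replicate 1 and 1.96-fold in replicate 2.

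Neat1 (ENSMUSG00000092274) follows on the same strand of chromosome 19 from 5824708 to 5845478, with 22035 bases between it and Malat1, and is also a lincRNA whose merged exons form 1 block. It had 3.83 and 5.84 CPM in Input, 9.27 and 12 with LacZ probes, 8.36 and 12.5 with ODD and 8.37 and 7.09 with EVEN. EVEN replicate 2, with 79 counts, was the closest to Input, at a log2 ratio of 0.28 over the Input of its experiment. The other 5 pull-downs had log2 ratios above 1. The mean of the pull-downs was 0.98 above Input on the log2 scale (SE 0.28), which did not pass the test over all genes (adjusted p 0.0759) and passed it with the replicate as a block (0.99, adjusted p 0.00932).

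Miat (ENSMUSG00000097767) is a lincRNA on the minus strand of chromosome 5 from 112213228 to 112229395, with 6 merged exons. It had 304 and 438 CPM in Input, 705 and 1022 with LacZ probes, 696 and 980 with ODD and 694 and 763 with EVEN. Replicate 2 was above replicate 1 in every group. Relative to the Input of its own experiment its gain differed by less than the spread, with mean log2 ratios of 1.20 ± 0.01 in replicate 1 and 1.06 ± 0.23 in replicate 2 (SD, n = 3 probe sets). The ratios of a replicate share their Input library, so this spread leaves out the error of that Input. Miat rose by 1.12 (SE 0.25, adjusted p 0.0332), or 2.18-fold. It no longer passed without Input replicate 1 (0.87, adjusted p 0.239), Input replicate 2 (1.40, 0.0701), LacZ replicate 2 (1.02, 0.0667), ODD replicate 2 (1.03, 0.059) or either EVEN library (1.14 and 1.09, 0.0613 and 0.0691).

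Miat held the motif ACTAAC, the branch point letters that SF1 binds, more often than the other 5, so its densest stretch is shown. Searched on the transcript strand only, the longest isoform of 9163 bases held ACTAAC 11 times and the longer TACTAAC, which contains it, 6 times. Of 16508 tested genes with a sequence, 30.0% held ACTAAC at least once, and Miat ranked 5 by the number of matches. A long isoform has more places for a match, and by matches per 1000 bases, at 1.2, Miat ranked 71. Neat1 held ACTAAC 4 times and Pvt1 1 time, while Malat1, Rmst and Dleu2 held none in their longest isoform. A stretch of 150 bases of a Miat exon, chr5:112217319-112217468 on the minus strand, has 4 of the motifs, which are in capitals.
Miat: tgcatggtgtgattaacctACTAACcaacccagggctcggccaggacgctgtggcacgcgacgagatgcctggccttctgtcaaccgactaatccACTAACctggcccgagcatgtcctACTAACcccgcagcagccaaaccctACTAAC

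Rmst (ENSMUSG00000112117) is a spliced lincRNA with 14 merged exons on the minus strand of chromosome 10, from 92071037 to 92165170. It had 36.7 and 50.5 CPM in Input, 119.4 and 119.2 with LacZ probes, 107.2 and 118.2 with ODD and 108.1 and 107.4 with EVEN. The pull-downs covered a narrow range and lay far above both Inputs. Rmst rose by 1.38 (SE 0.17, adjusted p 0.00426), or 2.59-fold, and kept passing without any single library. It was also the only one of the 6 that passed in each probe set tested alone, with 1.45 in LacZ (adjusted p 0.00651), 1.37 in ODD (0.00815) and 1.30 in EVEN (0.0121). Without Input replicate 1 these became 1.23, 1.15 and 1.08 (adjusted p 0.0514, 0.06 and 0.0871), and EVEN also missed the threshold without EVEN replicate 1 (1.29, adjusted p 0.0673).

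Pvt1 (ENSMUSG00000097039) spans 340111 bases of the plus strand of chromosome 15, from 62037986 to 62378096, of which its exons take 2.06%. It had 7.70 and 8.71 CPM in Input, 13.9 and 13.7 with LacZ probes, 13.0 and 12 with ODD and 12.7 and 11.1 with EVEN, from 108 to 187 counts. Its Input libraries differed by 1.13-fold, the least of the 6. The mean of the pull-downs was 0.63 above Input (SE 0.17, adjusted p 0.0617), or 1.55-fold, and it passed with the replicate block (0.63, adjusted p 0.0116).

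Dleu2 (ENSMUSG00000097589), annotated as a processed transcript, lies on the minus strand of chromosome 14 from 61602839 to 61682373 and has 11 merged exons. It had 15.9 and 23.9 CPM in Input, 36.3 and 37.8 with LacZ probes, 31.0 and 35.1 with ODD and 31.9 and 24.9 with EVEN. EVEN replicate 2 was barely above its own Input, at a log2 ratio of 0.06. The mean of the pull-downs was 0.72 above Input (SE 0.20, adjusted p 0.075), or 1.64-fold, and 0.73 with the replicate block (adjusted p 0.0197). It was -0.98 (adjusted p 0.000622) once each library's trend on the GC content of the longest isoform was also removed. The limits of that trend are given below. Without Input replicate 1 the value was 0.44 (adjusted p 0.378), and without Input replicate 2 it was 1.03 (adjusted p 0.0599). The sequences that Dleu2 is known for are the miRNAs in its span, printed from RefSeq (GRCm38.p6) with the seed, bases 2 to 8, in capitals. These 5p arms of miR-15a and miR-16 share 1 seed.
miR-15a-5p: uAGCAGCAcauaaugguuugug
miR-16-5p: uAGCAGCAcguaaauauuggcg
The precursor genes of these miRNAs, and of miR-135a-2 and miR-1251 inside Rmst, were at 0 counts in all 8 libraries. How reads shared between genes were counted is not known here, so these zeros say nothing of the miRNAs.

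Across the set, 3 of the 6 RNAs (Rmst, Malat1 and Miat) rose in the mean of the pull-downs, against 8.37% of all genes tested that were called higher and 1.79% lower. With the replicate block all 6 passed, against 16% of all genes. In the single probe sets 1 of 6 passed each time, where 6.98% of genes were called higher in LacZ, 6.46% in ODD and 5.37% in EVEN. With the block, 6 passed in LacZ (12.7% of all genes), 6 in ODD (12.6%) and 3 in EVEN (12.8%), the last being Malat1, Miat and Rmst. With DESeq2 it was 6 in LacZ (8.67%), 4 in ODD (8.16%), 3 in EVEN (7.53%) and 6 in the mean of the pull-downs (10.6%). All 6 RNAs had 6 of 6 pull-down libraries above both Inputs, as had 17.7% of all genes tested. The comparisons with LacZ, ODD and EVEN share the Input libraries and are not independent. The median of all genes in the mean of the pull-downs was -0.02, and -0.14 after the block and removal of the GC trend.

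**Figure D2:**
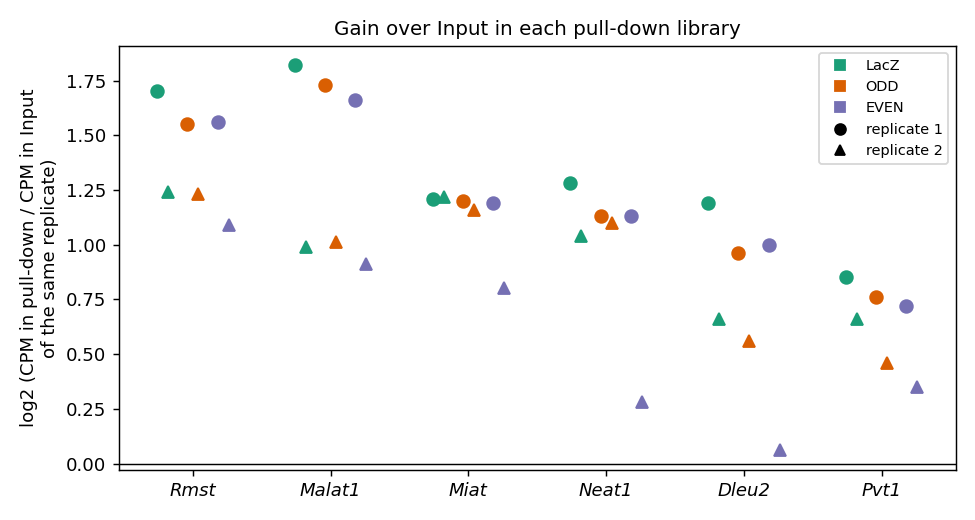
Gain of each RNA in each pull-down library, as the log2 ratio of its CPM over the Input library of the same replicate, with colours for probe sets, circles for replicate 1 and triangles for replicate 2. Malat1 separates by replicate (0.91 to 1.01 against 1.66 to 1.82), Miat does not except for EVEN replicate 2 at 0.80, and the lowest point of every RNA is EVEN replicate 2.

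The ratios over Input differed more between the experiments than between the probe sets for Malat1. Its mean log2 ratio was 1.74 ± 0.08 in replicate 1 and 0.97 ± 0.05 in replicate 2 (SD, n = 3 probe sets), and the ranges did not overlap. The 3 ratios of a replicate share 1 Input library, so these SDs leave out the error of that Input. Rmst showed the same order with 1.60 ± 0.09 and 1.18 ± 0.08, and so did Dleu2 with 1.05 ± 0.12 and 0.43 ± 0.32. Pvt1 had 0.78 ± 0.07 and 0.49 ± 0.15, and Neat1 had 1.18 ± 0.09 and 0.81 ± 0.46. For every one of the 6 the Input of replicate 2 was above the Input of replicate 1, by 1.13-fold to 1.88-fold, so a lower ratio went with a higher Input. With 1 library per group and experiment, the difference between experiments has no test. Cell type markers moved with the replicate as well. The motor neuron filament gene Prph had 1079 counts in the Input of replicate 1 and 6552 in that of replicate 2, and the myelin gene Mbp had 8733 and 1153, with the same order in every pull-down group. Their part in the gains was not tested.

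No RNA of the 6 was called between Lhx1os probes and LacZ probes. The target Lhx1os, at 5.42 (SE 1.10) on the log2 scale in the mean of ODD and EVEN over LacZ, was not called by edgeR either. DESeq2 did call it (adjusted p 2.2e-09). The absence of a call in edgeR therefore does not show that the 6 RNAs were equal between the probes. In the mean of ODD and EVEN over LacZ the log2 fold change was -0.07 for Malat1, -0.25 for Neat1, -0.14 for Miat, -0.11 for Rmst, -0.18 for Pvt1 and -0.27 for Dleu2, with SEs of 0.16 to 0.28. All 6 values were below 0, as were 46% of all genes tested, and the value of Miat was 0.15 without LacZ replicate 2. The adjusted p was 1 for each of the 6, and edgeR called 0% of the 16524 genes in this comparison, where 218 had an unadjusted p under 0.05 and DESeq2 called 2 (0.0121%). In ODD and EVEN alone over LacZ edgeR also called 0 genes (170 and 283 at an unadjusted p under 0.05), and DESeq2 called 1 (0.00605%) and 12 (0.0726%). In EVEN over LacZ DESeq2 gave no adjusted p for Lhx1os, Neat1, Dleu2 and Pvt1, so none of these is among the 12. The largest single difference was that of Neat1 in EVEN, -0.46 (SE 0.33, adjusted p 1). In replicate 1 the LacZ library was the highest of the 3 pull-downs for all 6 RNAs (35.3% of all genes). EVEN replicate 2 gave the lowest ratio over Input for all 6 (19.5% of all genes).

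The letters that the 6 RNAs share with Lhx1os were read from the annotated isoforms, because probes antisense to Lhx1os pair with such a stretch on the same strand. The longest exact run on the same strand was 11 or 12 bases for Malat1, Miat, Rmst, Dleu2 and Pvt1, where the median of 16507 genes was 11. Neat1 had 18, a length that 3.6% of genes reach. On the opposite strand Neat1 had 26 bases (0.1% of genes), and Malat1 and Dleu2 had the same 20 bases (2.6% of genes). These shares take no account of length, and a transcript as long as Neat1 (20771 bases) has more places for a run to match. The letters beside the runs of Malat1 and Dleu2 are nearly the same as well. Whether the runs on either strand belong to elements repeated over many transcripts was not tested. The same-strand run of Neat1 and the 20 bases of Malat1 and Dleu2 are 1 stretch of Lhx1os read from opposite strands. They are printed with 10 bases on each side and the shared run in capitals, at chr19:5827104-5827121 for the same strand of Neat1, chr19:5834308-5834333 for its opposite strand, chr19:5802009-5802028 for Malat1 and chr14:61627879-61627898 for Dleu2, each on the minus strand.
Neat1, same strand: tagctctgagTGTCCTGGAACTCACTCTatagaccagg
Neat1, opposite strand: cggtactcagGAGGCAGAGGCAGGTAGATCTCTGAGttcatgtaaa
Malat1, opposite strand: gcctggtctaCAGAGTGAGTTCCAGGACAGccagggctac
Dleu2, opposite strand: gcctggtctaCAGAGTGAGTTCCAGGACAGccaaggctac
Neat1, with the longest run on either strand, had 1.11 over Input in ODD (SE 0.33, adjusted p 0.111), 0.68 in EVEN (SE 0.33, adjusted p 0.328) and 1.14 in LacZ (SE 0.33, adjusted p 0.0963). Probe sequences were not used here, so a match is a description of the letters only.

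The gains were then set against each other within libraries. In this test every library was scaled on 1 of the RNAs, so that the value of another RNA is the difference of their log2 gains. Of 15 pairs, 3 passed. Pvt1 gained less than Rmst, by -0.76 (SE 0.22, p 0.00652, adjusted p 0.00859), Dleu2 gained less than Rmst, by -0.65 (SE 0.19, p 0.00753, adjusted p 0.00978), and Pvt1 gained less than Malat1, by -0.75 (SE 0.35, p 0.0421, adjusted p 0.0488), in edgeR's test adjusted over all genes. In such a fit most genes are called, 86.9% when scaled on Rmst, 86.3% on Malat1, 77.8% on Miat and 56.3% each on Dleu2 and on Pvt1. Adjusted over the 15 pairs instead, none passed, the smallest value being 0.0565, while with the replicate block 6 pairs passed over all genes (92.5%, 91.4%, 91%, 72.9% and 77.6% of all genes when scaled on Rmst, Malat1, Miat, Dleu2 and Pvt1) and 5 over the pairs.

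The ratios behind these calls can be read directly. Per 1000 counts of Rmst there were 210 and 172 counts of Pvt1 in Input, and 101 to 121 in the 6 pull-downs. For Dleu2 there were 434 and 473 counts in Input and 232 to 317 in the pull-downs. Neither range overlapped its Input. Per 1000 counts of Malat1 there were 2.69 and 1.62 counts of Pvt1 in Input and 1.10 to 1.40 in the pull-downs, so the lower Input value came close. By an exact permutation test over the 8 libraries, 2 against 6, 7 pairs reached 0.0714, which is the smallest two-sided p this design allows, so no pair could pass by that test. Without Input replicate 1, Pvt1 against Rmst was -0.61 (adjusted p 0.0523) and Dleu2 against Rmst still passed, at -0.71 (adjusted p 0.0207). Pvt1 against Malat1 lost its call without 7 of the 8 libraries: it was -0.35 (adjusted p 0.281) without Input replicate 1 and -0.70 to -0.82 (adjusted p 0.068 to 0.118) without each of the 6 pull-downs in turn. It passed without Input replicate 2, at -1.08 (adjusted p 0.00772). Scaled on Dleu2 in place of Rmst, that pair gave -0.66 with an adjusted p of 0.0773.

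For the RNAs with the larger gains the data did not set an order. Rmst against Malat1 was 0.02 (95% interval -0.65 to 0.69), Miat against Malat1 was -0.23 (-0.89 to 0.43), and Rmst against Miat was 0.27 (-0.29 to 0.84). Neat1 against Malat1, its neighbour on chromosome 19, was -0.36 (-1.05 to 0.34). These intervals reach beyond a difference of 0.4 in at least 1 direction and so do not show that the gains were alike. Dleu2 against Malat1 was -0.61 (adjusted p 0.0809) and passed with the replicate block (adjusted p 0.0162). Dleu2 against Miat (-0.38, adjusted p 0.237) and Pvt1 against Miat (-0.49, adjusted p 0.172) also passed with the block (adjusted p 0.0444 and 0.0153).

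**Figure D3:**
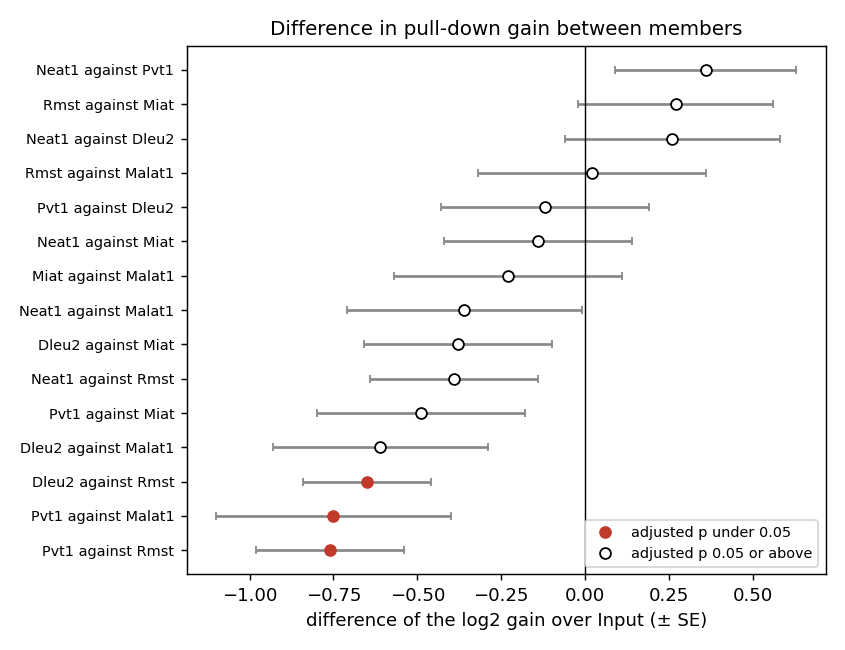
Difference between the log2 gains of 2 RNAs in the mean of the pull-downs over Input, for all 15 pairs, with bars of 1 SE; filled red symbols have an adjusted p under 0.05. The 3 filled points are Pvt1 and Dleu2 against Rmst and Pvt1 against Malat1, at -0.76, -0.65 and -0.75, and Rmst against Malat1 lies at 0.02.

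Genes annotated inside or across the 6 RNAs gave a finer view of their loci. There were 39 such genes, of which 38 had a row and the other was not analysed here; 22 were at 0 in all libraries and 5 passed the filter, 4 in Dleu2 and 1 in Rmst. Gm37420, an unspliced model awaiting experimental check (class TEC) on the strand of Dleu2 and inside its introns (chr14:61667220-61670131), had 13 and 5 counts in Input, 44 and 52 with LacZ probes, 55 and 21 with ODD and 62 and 26 with EVEN. Its fitted value was 9.84-fold above Input, where that of Dleu2 was 1.64-fold. It passed the filter on low counts only through the pull-downs, where it was high, so its gain is given with no test. Gm37472, another such model (chr14:61677443-61681494), had 23 and 32 counts in Input, 72 and 76 with LacZ probes, 88 and 46 with ODD and 100 and 46 with EVEN, and rose 5.27-fold (log2 SE 0.44, adjusted p 0.0164). The tested TEC models had a median log2 gain of 2.67, 68.7% of them were called higher, and Gm37472 was below that median. Models such as Gm37420 entered this class only through the pull-downs, so the filter can raise its median and share. How many did so was not counted.

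The other genes in these loci were mixed. Gm27010, an intronic lincRNA on the strand of Dleu2, was 1.19 above Input, also with no test for the same reason. Trim13, a protein-coding gene on the opposite strand that overlaps Dleu2, was at -0.13 (adjusted p 0.736) and shares no exon bases with it. The sources used here do not say whether counting used the strand. Genes with a row whose exons overlap those of the 6 RNAs on the other strand held at most 11 counts in a library. In an intron of Rmst, the small RNA model Gm27588 (chr10:92101665-92101927) had 2 and 1 counts in Input against 5 to 15 in the pull-downs, 3 against 56 in all. Per total count that is a ratio of 12.95, with an exact counting interval of 4.21 to 64.7. It too passed the filter only through the pull-downs and is given with no test, and its fitted log2 value went from 3.50 to 1.11 with the block and the GC trend removed.

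**Figure D4:**
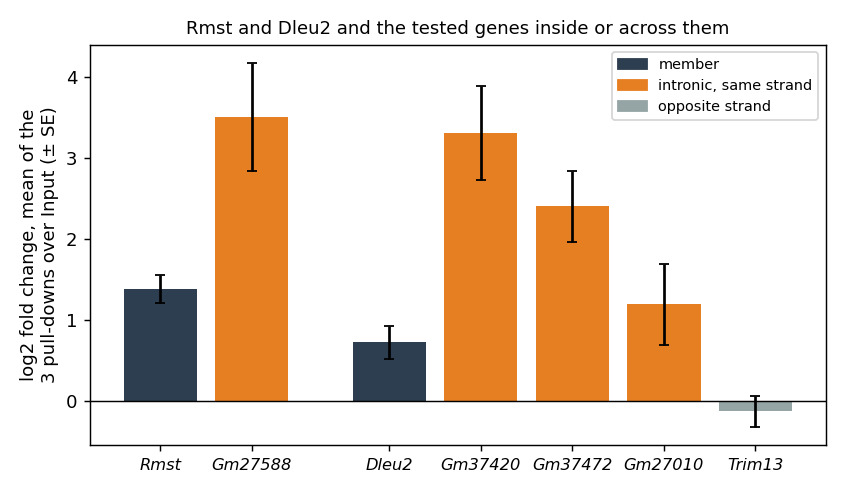
Log2 fold change of the mean of the pull-downs over Input (bars, starting at 0, with 1 SE) for Rmst and Dleu2 and for the 5 genes inside or across them that passed the filter, coloured by strand and place. The intronic model Gm37472 stands at 5.27-fold on the linear scale, and its host Dleu2 at 1.64-fold. Gm37420 (9.84-fold), Gm27010 and Gm27588 (11.3-fold, with its host Rmst at 2.59-fold) passed the filter only through the pull-downs. Their bars are therefore shown with no test and are not ranked against their hosts. The bar of Gm27588 rests on 3 Input counts and falls to a log2 value of 1.11 with block and GC trend removed.

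None of the nearest protein-coding genes given here shared the gain at the threshold. Frmd8, at the higher coordinates beside Neat1 and Malat1, was at -0.17 (adjusted p 0.75). Tmpo and Nedd1, which are 889721 and 519575 bases from Rmst, were at -0.04 and -0.05. Spryd7 and Dleu7, which are 45952 and 593857 bases from Dleu2, were at -0.30 and 0.09. Myc, the proto-oncogene beside Pvt1, was at -0.55 (SE 0.39, adjusted p 0.453) and was lower with the replicate block (adjusted p 0.0056). Gm26897 and Cryba4, 478653 and 17097 bases from Miat, and Gsdmc, 1397871 bases from Pvt1, were at 0 in all libraries.

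Base composition moved with the gain over all genes, and the 6 RNAs stood at different places on that trend. Among the genes within 1 percentage point of the GC content of Malat1 (42.5%) the median gain was 0.07, and 84.5% of them were below Malat1. For Rmst (41.6%) the median was 0.09 and 82.8% were below it, for Neat1 (47.3%) 0.02 and 90.2%, for Pvt1 (45.9%) 0.02 and 83.8%, and for Miat (55.1%) -0.14 and 96.4%. Dleu2, at 34.5% GC in its longest isoform, had 152 genes in its window with a median of 2.59, and 28.3% of them were below it. So 5 RNAs lay above most genes of their composition, as read from the longest isoform, and Dleu2 below. Counts cover all merged exons, of which that isoform holds 4098 of 11334 bases in Dleu2, 2891 of 7423 in Rmst and 3319 of 6996 in Pvt1. Dleu2 also lies at the edge of the trend, with 0.775% of genes tested below it in GC content. Genes that passed the filter only through the pull-downs were not set apart in the windows or in the trend, and Gm27588, at 31.2% GC, is such a gene. The place of Dleu2 against the trend is therefore less certain. With the block and with the trend on GC removed, Miat was at 1.22, Malat1 at 0.96, Rmst at 0.93, Neat1 at 0.84 and Pvt1 at 0.43, and these 5 passed (13% of all genes did so upward), while Dleu2 passed in the other direction (25.1% of all genes). In the single probe sets this fit called 5 of the 6 higher in LacZ (10.8% of all genes), 4 in ODD (10.8%) and 3 in EVEN (10.3%), and Dleu2 lower in each (16.8%, 17% and 15.8%).

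**Figure D5:**
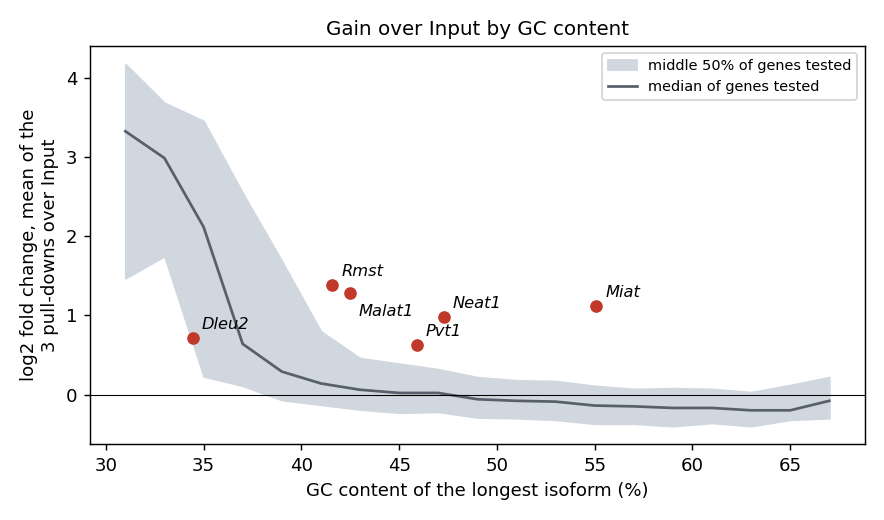
Log2 fold change of the mean of the pull-downs over Input against the GC content of the longest isoform, with the line for the median and the band for the middle 50% of all genes tested in bins of 2 percentage points, and red points for the 6 RNAs. Dleu2 at 34.5% GC sits below the median line, while Miat at 55.1% sits at 1.12 where the genes of its window have a median of -0.14. The line and band include genes that passed the filter only through the pull-downs.

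By annotated class, the 368 tested lincRNAs had a median gain of 0.29 and 8.70% of them were called higher, close to the 8.37% of all genes. Protein-coding genes had a median of -0.09 with 1.25% called, and TEC models 2.67 with 68.7% called. Genes that passed the filter only through the pull-downs were not set apart here, so the filter can raise these medians and shares. The 5 lincRNAs of the 6 RNAs lay above the median of their class, from 0.63 for Pvt1 to 1.38 for Rmst.

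Of 20 other RNAs listed as nuclear long noncoding RNAs, 19 were tested, with a median gain of 0.68 beside -0.02 over all genes. In the main fit 2 were higher and 1 was lower (8.37% and 1.79% of all genes). Lncpint, with 2 and 12 counts in Input and 9 to 29 in the pull-downs, passed the filter only through the pull-downs. It is in this median and among the genes higher with the block below, where its call is no test. Kcnq1ot1, the antisense RNA that silences an imprinted cluster, had 51.3 and 121 CPM in Input and 721 to 1105 in the pull-downs and rose by 3.41 (SE 0.39, adjusted p 0.00366). Mir99ahg, a miRNA host transcript, rose by 2.84 (SE 0.28, adjusted p 0.00255). Tug1 fell by 0.66 on the log2 scale (SE 0.15, adjusted p 0.0404), from 448.7 and 438.2 CPM in Input to 247 to 338 in the pull-downs. With the replicate block 14 were higher and 2 lower (16% and 13.1% of all genes). With the GC trend removed as well, 10 were higher and 4 lower (13% and 25.1%), with Snhg14 at -1.89 in place of 0.67 and Rian at -0.80 in place of 0.56. Kcnq1ot1 and Tug1 lay outside the range of the 6 RNAs, on either side.

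The transcripts that encode proteins of the bodies around Neat1 and Malat1 were nearer to 0. Of 15 mRNAs for paraspeckle proteins 0 passed, with a median of 0.06. In the main fit, used for the lists here, 8.37% of all genes were called higher and 1.79% lower. Of protein-coding genes 1.25% were called higher. Nono had the lowest value, -0.20 (adjusted p 0.509), and Pspc1, at 0.36 (adjusted p 0.468), was higher with the replicate block (adjusted p 0.0336). Of 14 mRNAs for nuclear speckle proteins, Rbm25 rose by 0.83 (SE 0.15, adjusted p 0.0145), the median was 0.34, and Luc7l3 had the highest value, 1.23 (SE 0.39, adjusted p 0.105). With block and GC trend removed, Rbm25 turned to -0.24 (adjusted p 0.105). The list then had 1 higher and 2 lower (13% and 25.1% of all genes) and a median of 0.02. Of 12 mRNAs known for introns that keep them in the nucleus, all 12 were above 0 with a median of 0.70, and Pnisr passed (0.85, SE 0.18, adjusted p 0.0312). Clk1, a kinase of splicing factors, had 1.11 (adjusted p 0.112), and with the block 11 of the 12 passed (16% of all genes). With the GC trend removed too, 4 were higher and 1 lower (13% and 25.1% of all genes), and the median was 0.26. The same fit gave 0 higher and 2 lower of the paraspeckle list (13% and 25.1% of all genes), with a median of -0.18.

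Cytoplasmic RNAs were listed for contrast. Of 10 abundant cytoplasmic mRNAs 0 passed, and the median was -0.20, from -0.44 for Gapdh to 0.24 for Eef1a1. Over all genes tested 8.37% were called higher and 1.79% lower, so 0 calls in a list this short do not set it apart. With the block Gapdh and Tubb3 were lower (13.1% of all genes). Of 8 long noncoding RNAs that are cytoplasmic or decay with translation 0 passed (8.37% of all genes were higher and 1.79% lower) and the median was -0.09. Snhg1 (1.09, SE 0.35, adjusted p 0.106) and Gas5 (0.95, SE 0.40, adjusted p 0.205) nevertheless had values in the range of the 6 nuclear RNAs. They and Snhg12 were higher with the block (16% of all genes). With the GC trend removed too, 0 were higher and 3 lower of the mRNAs, and 2 were higher and 3 lower of the noncoding RNAs. Over all genes that fit called 13% higher and 25.1% lower.

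The genes most like each RNA across the 8 libraries were taken by Pearson's r of log2(CPM + 1) among 10561 genes with a mean of at least 10 CPM. The 8 libraries share their groups and experiments, so r describes these libraries only. For Malat1 they were Clasrp (r = 0.992) and Gm9801 (0.989), for Rmst Gm9801 (0.998) and Kcnq1ot1 (0.997), and for Miat Gm42664 (0.994) and Gm49759 (0.992). For Pvt1 they were 2610307P16Rik (0.995) and 2700078F05Rik (0.975), for Dleu2 Hsf1 (0.984) and Sept2 (0.979), and for Neat1 Abcd4 (0.983) and Cpsf6 (0.977). The lincRNA Gm9801 was named for both Malat1 and Rmst, with 15.2 CPM in Input and 75.3 in the pull-downs on average, a larger gain (2.31) than either.

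Simple sequence was compared too, since the 6 RNAs differ in it. By dustmasker at level 20, low-complexity stretches took 0.55% of the longest isoform of Rmst, 3.22% of Miat, 3.31% of Malat1, 3.89% of Neat1, 4.22% of Dleu2 and 4.94% of Pvt1. The median was 2.2% over all genes tested and 2.58% over lincRNAs, and Lhx1os had 0.0%. Rmst had the lowest share of the 6 and Pvt1 the highest.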

How the data were processed

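Input and 3 pull-downs were sequenced as stranded, ribosomal RNA-depleted libraries of total RNA, 2 each, as the labels' protocols state. The authors deposited whole-number read counts per Ensembl gene, FPKM values and a gene length. Deposited FPKM equalled counts over length and column total (largest relative difference 6.64e-14). The submitters' processing notes name cutadapt 3.2, Bowtie2 2.4.2, Picard, HTSeq 0.13.5 and GRCm38; annotation, strand setting and handling of shared reads were not given in the sources used. Of 55471 identifiers 55230 were found in GENCODE M21, 54741 with the deposited length; the rest held 0.00229% to 0.00458% of a library's counts.

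Counts were tested with edgeR 4.0.16 (R 4.3.3): quasi-likelihood fit of the 8 libraries by group, TMM factors of 0.965 to 1.03, default filter by group (16524 genes), two-sided p-values, Benjamini-Hochberg adjustment over all genes, threshold 0.05. SEs are the log2 fold change over the square root of F, and 95% intervals assume a normal spread. Gains of 2 RNAs were compared with the log count of the more abundant one as offset. Reads carry no molecular identifiers, so a counting interval covers counting error only. Replicates of a group differed beyond sampling noise (chi-square per degree of freedom 31.5 to 61.5). The labels give the replicate as a batch from independent experiments, and deviations of same-numbered libraries correlated with r of 0.534 to 0.765 over the 6 pairs of groups, so the number was used as a block in an alternative fit.

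Alternatives besides the block were RLE size factors, DESeq2 1.42.0, total counts, 2 other filters, limma 3.58.1 on log2(FPKM + 1), only the groups compared, a GC spline of 5 degrees of freedom with the block, and leaving out each library. The RNAs, gene lists and tests were chosen with earlier results of these data known. Named genes were the 6 RNAs, tested genes overlapping them, nearest protein-coding genes, the 2 most correlated genes of each, and the highest and lowest or called genes of each list. A neighbouring gene and a list gene that this rule names are not reported here. Oip5os1 was matched through its RefSeq synonym. The main fit and a fit scaled on 1 gene were run on simulated counts that held no replicate effect and no GC trend. The other fits were not tested this way.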

Additional observations from a re-analysis of the deposited data

How the results depend on the processing

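The number of the 6 RNAs called higher depended on the setting. In LacZ over Input it was 1, and 6 with DESeq2, 3 with RLE size factors, 5 with no filter beyond 1 count, 6 with the replicate block, 5 with the block and the GC trend removed, and 0 to 2 leaving out 1 library. In ODD over Input it was 1, and 4 with DESeq2, 4 without the filter, 6 with the block, 4 with block and GC, and 0 to 2 leaving out 1 library. In EVEN over Input it was 1, and 3 with DESeq2, 3 without the filter, 0 with only the groups compared, 3 with the block, 3 with block and GC, and 0 to 2 leaving out 1 library. In the mean of the pull-downs it was 3, and 6 with DESeq2, 1 with the filter of 50 counts, 5 without the filter, 6 with the block, 5 with block and GC, and 1 to 2 leaving out 1 library. Pairs of RNAs that differed were 3, and 6 with the block, 1 scaled on the less abundant RNA, and 1 to 4 leaving out 1 library; the permutation test gave 0, which its smallest possible p of 0.0714 fixed in advance. Numbers of all genes called in the mean of the pull-downs were 1383 higher and 296 lower, 2647 and 2171 with the block, 2150 and 4142 with block and GC, and 1752 and 610 with DESeq2. The split of higher against lower thus moved with the setting. With RLE size factors 1163 of 16524 genes were higher in LacZ. Without the filter 1797 of 28192 were higher in LacZ, 1788 in ODD, 1639 in EVEN and 2101 in the mean. With only the groups compared 476 of 16268 were higher in EVEN, and with the filter of 50 counts 645 of 13320 in the mean. Fits without 1 library leave 1 library in a group, so their counts are given with no share of all genes.

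Reversals were those of Dleu2 with the block and the GC trend removed, at -0.91 in LacZ, -1.0 in ODD, -1.04 in EVEN and -0.98 in the mean, and of Miat without LacZ replicate 2, where leaving out 1 library gave -0.31 to 0.25 in ODD over LacZ, -0.49 to 0.04 in EVEN over LacZ and -0.39 to 0.15 in their mean over LacZ. Another 6 values that passed in neither fit changed sign by less than their SE, 4 of single RNAs over LacZ and 2 of pairs. The causes were not tested. Counts of single values that kept direction and side of the threshold, became stronger, weaker, moved or reversed were 927, 59, 33, 98 and 7. The mean of the pull-downs uses all groups, so a fit of only the groups compared is the same fit. Neat1, Pvt1 and the intronic models rest on few counts, and 2 libraries per group limit every SE.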
